A study of Mus musculus with 4 samples.

Results

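The levels of 10 Hox genes, 5 of the Hoxc cluster (Hoxc4, Hoxc5, Hoxc6, Hoxc8 and Hoxc9) and 5 of the Hoxd cluster (Hoxd4, Hoxd8, Hoxd9, Hoxd10 and Hoxd11), were read by intestine and cell class from counts of unique molecular identifiers (UMIs). They make up 10 of the 39 Hox genes in the files, and were taken as a list of names made with earlier results of these data known. Mesenchymal stromal cells (MSC) of mouse small intestine and colon were profiled by droplet single-cell RNA-seq, with 2 libraries per intestine (replicates 1 and 2). Both groups were untreated C57BL6/Nrj females of 8 to 10 weeks, with 3 mice in each of 2 experiments. By the study's methods the tissues were also prepared differently, with dithiothreitol added for colon alone and with shaking for small intestine but a magnetic stirrer for large intestine, and these cannot be told apart from the intestine. Muscle layers had been stripped, and live cells negative for CD45, Ter119, CD31, BP3, EpCAM and L1CAM and positive for Itgb1 had been sorted, so the cells stand for the lamina propria and not for the whole wall. Values of 4 libraries are given in the order small intestine replicates 1 and 2, colon replicates 1 and 2.

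Hox genes encode homeodomain transcription factors and lie in clusters, where the order of the genes along the chromosome follows the order in which they are used along the head to tail axis of the embryo. Low numbered members act towards the head and high numbered, posterior members act towards the tail, and genes with the same number in different clusters are paralogues. Adult fibroblasts (FB) are known to keep expressing Hox genes according to their position in the body.

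The files held 2061, 16795, 2590 and 13537 barcodes, and 29842 of the 30697 cells kept were MSC. Depth was uneven, with 10319874 to 47537058 UMIs in the MSC of a library and a median of 7938, 2733, 9214 and 3877 UMIs per MSC. Replicate 1 libraries were processed with Cell Ranger 3.0.2 and replicate 2 libraries with 3.1.0 per the file headers. Labels name a 3′ v3 and a 5′ kit but not which library had which, so each replicate number was read as a possible technical batch with 1 library per intestine. Values within it are given. The main tests between intestines were run without it, and tests with it as a block are given beside them. Colon and small intestine libraries of replicate 2 shared 69 barcodes, those of replicate 1 shared 8, and all other pairs shared 0 to 2.

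Cells were gated by marker genes, none of them a Hox gene, into PDGFRα hi FB (the subepithelial FB), CD81+ FB, smooth muscle cells (SMC), pericytes and the remaining FB. Small intestine held 100 and 618 PDGFRα hi FB, 341 and 2525 CD81+ FB, 709 and 10462 remaining FB and 111 and 521 SMC in replicates 1 and 2. Colon held 604 and 2296 PDGFRα hi FB, 187 and 1777 CD81+ FB, 968 and 6988 remaining FB and 252 and 872 SMC. Between 3 and 5 markers of their own stood among the 10 leading genes of PDGFRα hi FB, CD81+ FB, SMC and pericytes in either intestine. The remaining FB are what the gates left, with 1 and 0 of their markers among their leading genes, and were led by Igfbp3, Mmp10, Col6a5 and Fgfr2 in small intestine and by Stmn2, Edil3 and Col15a1 in colon. A gate is a range of a score and not a sharp type, and 38.8%, 38.7%, 23.1% and 28.3% of the MSC lay near its limits.

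All Hoxc members lie on the forward strand of chromosome 15 of mm10 and all Hoxd members on the forward strand of chromosome 2, with the high numbers upstream. In GENCODE vM21, Hoxc9 spans 102976439 to 102985099, Hoxc8 102990607 to 102994111, Hoxc6 102998257 to 103011881 and Hoxc4 103018934 to 103036852, and the annotated Hoxc5 runs from 102967443 to 103017429, across the genes between. Hoxd11 spans 74679557 to 74687016, Hoxd10 74691924 to 74695105, Hoxd9 74697727 to 74700208, Hoxd8 74704615 to 74707933 and Hoxd4 74711929 to 74729160. Of the exonic bases of Hoxd4, 52.3% are shared with Hoxd3 and Gm28230 on the same strand and 11.8% face the antisense gene Hoxd3os1, so counts of Hoxd4 are uncertain. Hoxc5 shares 5.37% of its exonic bases with Hoxc10, and Hoxd10 and Hoxd11 share 5.73% and 10.8% with Gm28309, while Hoxc4, Hoxc6, Hoxc8, Hoxc9, Hoxd8 and Hoxd9 share none.

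RefSeq promoter windows of GRCm38.p6 (250 bases before a start to 50 after it) were found for 6 of the 10 members, Hoxc4 and all 5 Hoxd genes. The windows of Hoxd9, Hoxd10 and the second of the 2 Hoxd11 starts are printed because these are the posterior genes detected in colonic MSC, and that of Hoxc4 because it is the one small intestinal Hoxc gene with an entry. They lie at chr2:74697513-74697812, chr2:74691641-74691940, chr2:74682073-74682372 and chr15:103034145-103034444, all on the forward strand and 5′ to 3′, and capitals mark each CG dinucleotide.
Hoxd9: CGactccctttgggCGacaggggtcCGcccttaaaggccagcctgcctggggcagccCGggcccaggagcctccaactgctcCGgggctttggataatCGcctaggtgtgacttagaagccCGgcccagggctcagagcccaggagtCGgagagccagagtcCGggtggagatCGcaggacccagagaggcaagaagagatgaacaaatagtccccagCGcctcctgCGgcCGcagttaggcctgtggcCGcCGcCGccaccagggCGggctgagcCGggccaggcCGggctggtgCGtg
Hoxd10: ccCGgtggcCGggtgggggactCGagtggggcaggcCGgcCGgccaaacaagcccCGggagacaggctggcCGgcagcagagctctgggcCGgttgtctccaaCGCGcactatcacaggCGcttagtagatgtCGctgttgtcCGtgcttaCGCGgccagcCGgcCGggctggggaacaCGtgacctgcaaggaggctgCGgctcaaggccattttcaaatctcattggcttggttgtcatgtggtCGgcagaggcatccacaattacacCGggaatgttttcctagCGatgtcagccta
Hoxd11: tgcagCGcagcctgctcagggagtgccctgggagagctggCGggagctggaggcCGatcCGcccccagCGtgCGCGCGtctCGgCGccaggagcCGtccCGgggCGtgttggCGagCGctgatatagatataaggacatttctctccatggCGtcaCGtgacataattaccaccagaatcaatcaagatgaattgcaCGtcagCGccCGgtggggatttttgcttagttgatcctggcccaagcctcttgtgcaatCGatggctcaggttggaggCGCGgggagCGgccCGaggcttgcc
Hoxc4: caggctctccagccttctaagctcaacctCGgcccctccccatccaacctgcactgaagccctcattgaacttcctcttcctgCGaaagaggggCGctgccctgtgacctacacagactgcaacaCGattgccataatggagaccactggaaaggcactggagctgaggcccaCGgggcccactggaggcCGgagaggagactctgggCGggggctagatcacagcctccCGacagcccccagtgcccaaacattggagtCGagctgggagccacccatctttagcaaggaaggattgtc
The 3 posterior Hoxd windows printed hold 20 (Hoxd9), 22 (Hoxd10) and 25 (Hoxd11) CG dinucleotides, and 26.5%, 23.1% and 18.4% of 32817 mouse promoter windows hold as many. The window of the first Hoxd11 start, also a posterior one but not printed, holds 4. The Hoxc4 window holds 9, as many as 45.8% of windows hold, and those of Hoxd8 and Hoxd4 hold 6 and 4, beside a median of 7 over all windows. Of 2 motifs searched on both strands, TTTATNG, a sequence bound by caudal and posterior Hox proteins, was found in the Hoxd4 window alone (2 matches forward, 1 reverse), and 10.9% of all windows hold it. TGATNNAT, a motif of Hox and Pbx pairs, was found once, in the second Hoxd11 window on the reverse strand, and 8.86% of all windows hold it. No match was found for either motif in the windows of Hoxc4, Hoxd8, Hoxd9 and Hoxd10.

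Hoxc4, Hoxc5, Hoxc6 and Hoxc8 were each higher in every small intestinal library than in every colonic library, in all MSC together and in each of PDGFRα hi FB, CD81+ FB, remaining FB and SMC. Hoxd9, Hoxd10 and Hoxd11 were higher in every colonic library in the same classes, and Hoxd10 and Hoxd11 had 0 UMIs in 15668 small intestinal MSC. Hoxc9 and Hoxd4 overlapped between the intestines in all MSC. Hoxd8 and Hoxd4 were detected in both intestines, and were higher in small intestine in some classes and in colon in another.

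**Figure D1:**
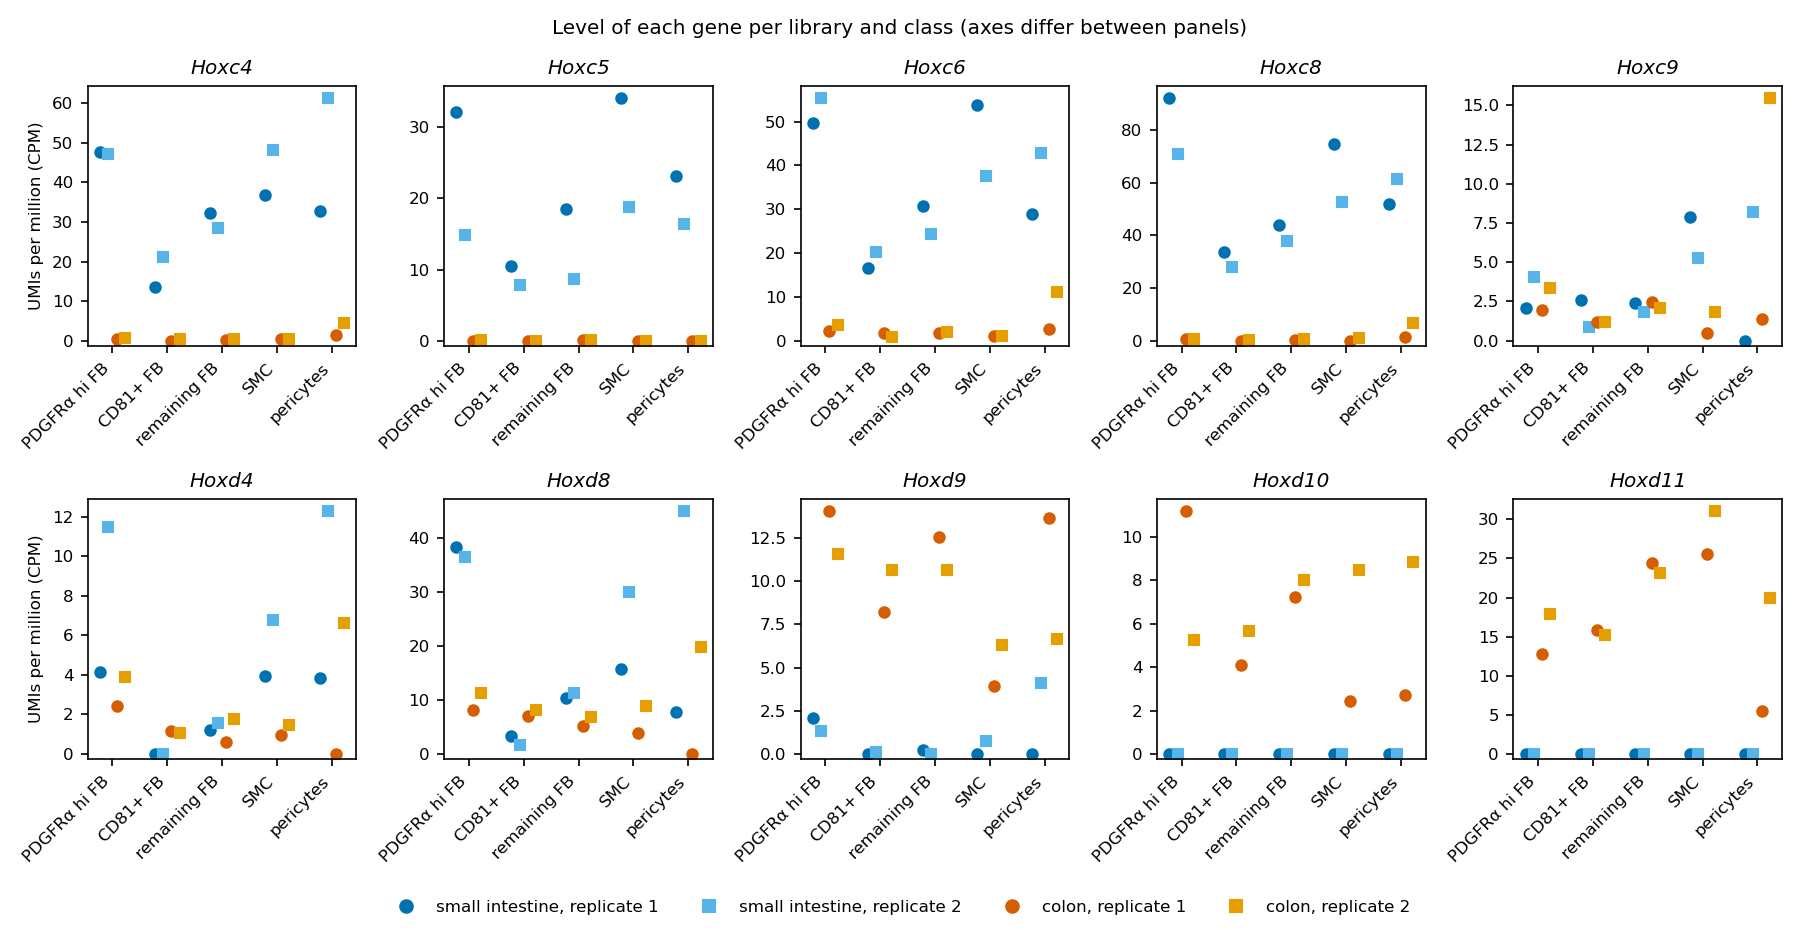
Level of each of the 10 genes in CPM (UMIs per 1000000 UMIs of the class in a library, linear axes that differ between panels), with 1 point per library and class, circles for replicate 1 and squares for replicate 2, blue for small intestine and orange for colon. Hoxc4, Hoxc5, Hoxc6 and Hoxc8 are high in blue and Hoxd9, Hoxd10 and Hoxd11 in orange, while Hoxd8 is higher in small intestine in PDGFRα hi FB, remaining FB and SMC and higher in colon in CD81+ FB.

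Levels are given as CPM, the UMIs of a gene per 1000000 UMIs of the class in a library. Among the anterior Hoxc genes, Hoxc4, which patterns the neck and upper trunk, had 28.6 and 28.8 CPM in small intestinal MSC and 0.256 and 0.526 CPM in colonic MSC, on 295, 1156, 5 and 25 UMIs. Its neighbour Hoxc5 had 18.8 and 9.11 CPM in the former and 0.0512 and 0.0841 CPM in the latter, on 194, 365, 1 and 4 UMIs. For both genes the 2 groups were far apart, and the spread within small intestine was wider for Hoxc5 than for Hoxc4. Over pooled UMIs Hoxc4 was 64.4-fold and Hoxc5 149-fold higher in small intestine.

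Of the middle members, which pattern the thoracic region, Hoxc6 had 29.9 and 25.3 CPM in the small intestinal libraries and 1.89 and 2.15 CPM in the colonic ones. Hoxc8 had 48.1 and 37.8 CPM in small intestine against 0.410 and 0.568 CPM in colon. Hoxc6 had 37 and 102 UMIs in colon, and its ratio of 12.7 was the smallest of the 4, beside 76.5 for Hoxc8. Hoxc9, the most posterior Hoxc gene listed, had 2.71, 1.92, 1.95 and 2.31 CPM, and its small intestinal and colonic libraries overlapped (ratio 1.06).

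Hoxd4, a gene of the neck vertebrae in the embryo, had 1.45, 1.92, 1.28 and 2.12 CPM in all MSC, and its groups overlapped as well (ratio 1.03). By class Hoxd4 did not overlap in PDGFRα hi FB, with 4.14, 11.5, 2.42 and 3.89 CPM (2.60-fold higher in small intestine), or in SMC, with 3.93, 6.77, 0.983 and 1.48 CPM (4.53-fold higher in small intestine). In CD81+ FB it had 0 UMIs in small intestine and 1.17 and 1.08 CPM in colon, at least 4.08-fold higher there. Hoxc9 did not overlap in SMC, with 7.87, 5.27, 0.492 and 1.85 CPM (4.91-fold higher in small intestine). Of these the Hoxd4 difference in PDGFRα hi FB alone passed the filter on low counts, with an edgeR adjusted p of 0.64, and the others rest on 10 to 19 UMIs. Hoxd8 had 11.1 and 11.3 CPM in small intestinal MSC and 5.99 and 8.16 CPM in colonic MSC, a ratio of 1.5 with no overlap.

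The posterior Hoxd genes, which pattern the lower trunk and the limbs, showed the opposite order. Hoxd9 had 0.291 and 0.150 CPM in small intestinal MSC, on 3 and 6 UMIs, and 11.8 and 10.6 CPM in colonic MSC, a ratio of 61.2. Hoxd10 had 0 UMIs in both small intestinal libraries and 7.63 and 7.11 CPM in colon, at least 122-fold higher against a floor of 3 counts over the small intestinal group. Hoxd11 had 0 UMIs in small intestine and 19.2 and 21.3 CPM in colon, at least 347-fold higher against that floor. These intervals and floors cover counting error only.

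The groups did not overlap for 8 of 10 members in all MSC, where 39.6% of all genes with at least 10 UMIs showed no overlap. The count was 9 of 10 in PDGFRα hi FB (39.4% of genes), 9 in CD81+ FB (38.8%), 8 in remaining FB (38.4%) and 10 in SMC (44.0%). As the list was made with earlier results of these data known, these counts are a description. Within each replicate number taken alone, Hoxc4, Hoxc5, Hoxc6 and Hoxc8 were higher in small intestine and Hoxd9, Hoxd10 and Hoxd11 in colon in all MSC. The log2 ratio of colon to small intestine was -6.87 and -6.06 for Hoxc8, -6.80 and -5.78 for Hoxc4 and -3.98 and -3.56 for Hoxc6 in replicates 1 and 2, and -0.48 and 0.27 for Hoxc9.

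**Figure D2:**
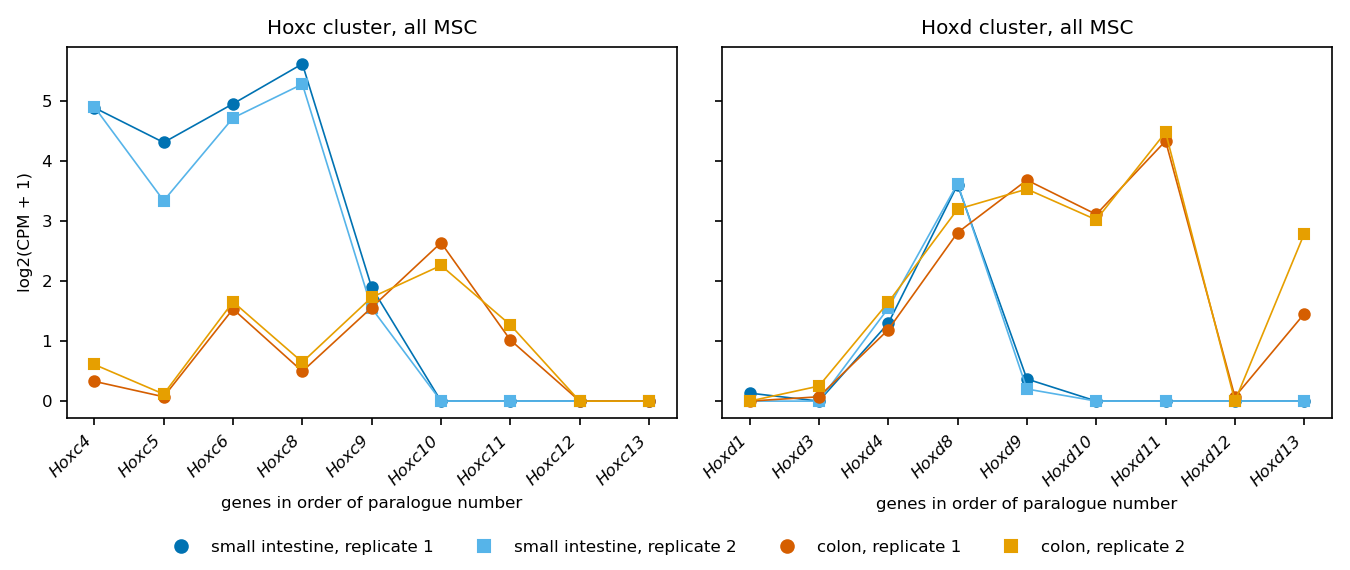
Level of every Hoxc and Hoxd gene of the files in all MSC, as log2(CPM + 1), in order of paralogue number, with lines joining the genes of a library. In the Hoxc cluster the small intestinal libraries are high at Hoxc4 to Hoxc8 and at 0 from Hoxc10 on, and in the Hoxd cluster the intestines part between Hoxd8 and Hoxd9.

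Along the clusters the intestines thus differed by position. The paralogue groups on either side of the listed ones were read from a list of 14 cluster neighbours, of which Hoxc10, Hoxc11 and Hoxd13 are named here after their values had been seen. All had 0 UMIs in small intestinal MSC. Hoxc10 had 5.22 and 3.79 CPM in colonic MSC, at least 70.6-fold higher. Hoxc11 had 1.02 and 1.41 CPM, at least 21.8-fold higher. Hoxd13, known for its part in the digits and the end of the gut, had 1.74 and 5.91 CPM, at least 78.9-fold higher, and its level differed more between the colonic libraries than that of Hoxd11 did. Hoxc12 and Hoxc13 had 0 UMIs in MSC of every library, and Hoxd12 had 1 UMI in all. Mtx2, a mitochondrial gene beside the Hoxd cluster and the neighbour with the highest level, had 41.1, 29.0, 56.2 and 40.0 CPM, and these overlapped between the intestines.

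Difference between the intestines was tested with edgeR's quasi-likelihood test on summed UMIs, over all genes, and a gene was called where its adjusted p (Benjamini-Hochberg) was under 0.05 and its log2 fold change exceeded 1.5 in size. With 2 libraries per group, such p-values measure only the spread between these libraries. In all MSC 0 of 10 members were called, and 0% of 14120 genes. At an unadjusted p under 0.05 the test found 7 members and 1578 genes, and DESeq2 called 7 members and 542 genes. Adjusted p was 0.054 for Hoxc4 (log2 fold change of colon against small intestine -6.15 ± 0.45, SE, n = 2 against 2), 0.054 for Hoxc8 (-6.46 ± 0.36), 0.054 for Hoxd9 (5.73 ± 0.43) and 0.51 for Hoxd8 (-0.73 ± 0.30). With the replicate number as a block the same test called 7 members in all MSC, 3 higher and 4 lower in colon, among 836 genes. With a block, 4 libraries say little of a gene's own spread, so these p-values lean on a spread shared over all genes. Without a block the count was 6 without colon replicate 1, 2 without small intestine replicate 1 and 0 without either replicate 2 library, where the lone library is assumed to vary as the other intestine does.

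In PDGFRα hi FB 4 of 10 members were called by the test without a block, all lower in colon, and 1.28% of all genes were called. These were Hoxc4 (-6.26 ± 0.49, edgeR adjusted p = 0.022), Hoxc5 (adjusted p = 0.028), Hoxc6 (-4.03 ± 0.39, adjusted p = 0.023) and Hoxc8 (-6.74 ± 0.41, adjusted p = 0.021). Hoxc8 had 92.2 and 70.9 CPM in this class of small intestine and 0.604 and 0.717 CPM in colon, and Hoxc5 had 32.1 and 14.9 CPM and then 0 and 0.102 CPM. Hoxc5 rested on 1 colonic UMI, a ratio of 355 (95% counting interval 61.0 to 14283). Adjusted p was 0.07 for Hoxd9, 0.062 for Hoxd11 and 0.10 for Hoxd8. All 4 calls ended without small intestine replicate 1 and without small intestine replicate 2 (0 members called in each fit), and the block called 8 members.

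In CD81+ FB 8 members passed the filter on low counts, as Hoxc9 and Hoxd4 did not, and 5 were called, 3 lower and 2 higher in colon, beside 0.492% of all genes. Hoxc4 (-5.39 ± 0.62, edgeR adjusted p = 0.048), Hoxc6 (-4.05 ± 0.41, adjusted p = 0.044) and Hoxc8 (adjusted p = 0.041) were lower, and Hoxd9 (adjusted p = 0.048) and Hoxd11 (adjusted p = 0.044) were higher. Hoxc8 had 33.6 and 28.1 CPM in this class of small intestine and 0 and 0.135 CPM in that of colon, a ratio of 270 on 1 colonic UMI (95% counting interval 48.1 to 10684). Hoxd11 had 0 UMIs in small intestine and 15.8 and 15.2 CPM in colon, at least 57.1-fold higher. The count was 0 without small intestine replicate 2, 2 without small intestine replicate 1, 2 without colon replicate 2 and 7 with the block.

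In remaining FB 4 of 10 members were called, 3 lower and 1 higher in colon, beside 0.249% of all genes. Hoxc4 (-6.56 ± 0.48, edgeR adjusted p = 0.049), Hoxc6 (-3.89 ± 0.28, adjusted p = 0.047) and Hoxc8 (-6.53 ± 0.31, adjusted p = 0.041) were lower and Hoxd11 was higher (adjusted p = 0.047). Hoxd11 had 24.4 and 23.2 CPM in colonic remaining FB, at least 264-fold above the small intestinal floor. Hoxd9 had 12.6 and 10.7 CPM in colon and 1 UMI in 11171 small intestinal cells of the class, a ratio of 374 (95% counting interval 66.8 to 14824), with an adjusted p of 0.097 by edgeR. The count was 0 without small intestine replicate 1 or without small intestine replicate 2, and 7 without either colonic library or with the block.

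In SMC 6 members passed the filter, as Hoxc9, Hoxd4, Hoxd9 and Hoxd10 did not, and 5 were called, 4 lower and 1 higher in colon, beside 3.7% of all genes. Hoxc6 (-5.25 ± 0.46, edgeR adjusted p = 0.011), Hoxc4 (adjusted p = 0.011), Hoxc5 (adjusted p = 0.019) and Hoxc8 (adjusted p = 0.013) were lower and Hoxd11 (adjusted p = 0.016) was higher. Hoxc6 had 53.8 and 37.6 CPM in small intestinal SMC and 0.983 and 1.11 CPM in colonic SMC. Hoxd11 had 25.6 and 31.0 CPM in colonic SMC and 0 UMIs in 632 small intestinal SMC. The count stayed at 5 or 6 without any 1 library and with the block.

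Over the 4 classes the median log2 fold change of the Hoxc members tested lay between -6.66 and -6.26, and that of the Hoxd members tested between 3.05 and 8.13, where the median of all genes tested lay between 0.00 and 0.01. Fitted values of genes with 0 UMIs in a group enter these medians and depend on the prior count. Members that did not pass the filter on low counts are left out, among them Hoxc9 in CD81+ FB and SMC. In SMC the Hoxd median is that of Hoxd8 (-1.75) and Hoxd11 (8.63) alone, which took opposite directions.

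The Hoxc set and the posterior set of Hoxd9, Hoxd10 and Hoxd11 were then set against each other within each library. Small intestinal MSC held 1322 and 4127 UMIs of the 5 Hoxc genes and 3 and 6 of the posterior Hoxd genes. Colonic MSC held 89 and 268 Hoxc UMIs and 754 and 1851 posterior Hoxd UMIs. The 5 listed Hoxc genes thus made up 99.8% and 99.9% of these UMIs in small intestine, and 10.6% (95% exact binomial interval 8.56 to 12.8) and 12.6% (11.3 to 14.1) in colon. Hoxc10, Hoxc11 and Hoxd13 lie in neither set. They had 282, 87 and 315 UMIs in colonic MSC and 0 in small intestinal MSC. The log2 ratio, with 0.5 added to each sum, was 8.56 and 9.31 in the small intestinal libraries and -3.08 and -2.79 in the colonic ones.

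What was left of the 5 listed Hoxc genes in colon was of another make-up. Hoxc6 gave 41.6% and 38.1% and Hoxc9 42.7% and 41.0% of colonic Hoxc UMIs, where Hoxc9 gave 2.12% and 1.87% of those of small intestine. Hoxd8 gave 86.5% and 84.5% of the UMIs of the 5 Hoxd genes in small intestine. In colonic pericytes, of which there were 98 and 132, Hoxc and posterior Hoxd UMIs numbered 5 and 16 in replicate 1 and 17 and 16 in replicate 2, so that the sets were near each other in number in replicate 2. Pericytes were not tested because a library held few of them.

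Depth per cell differed between libraries, so cells were also thinned to 2000 UMIs each, which left out 109, 3342, 81 and 1378 shallower MSC. A UMI of any of the 5 Hoxc genes was then found in 22.0%, 17.1%, 0.690% and 1.16% of MSC, and before thinning in 48.4%, 22.7%, 3.65% and 1.90%. A UMI of Hoxd9, Hoxd10 or Hoxd11 was found in 0.0807%, 0.0364%, 5.92% and 6.78% of thinned MSC and in 0.223%, 0.0419%, 20.4% and 11.9% before thinning. After thinning the libraries of an intestine stood closer to each other than before in both measures. Cells with UMIs of both sets made up 0.0807%, 0.00911%, 0% and 0.290% of thinned MSC, where 0 of 2028 cells allows up to 0.182% (95% exact binomial limit).

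As background, the Hoxc share was 0.637% of 314 thinned endothelial cells of small intestine replicate 1 (median 4519 UMIs before thinning) and 0% of 225 of colon replicate 1 (median 5070 UMIs), which allows up to 1.63% (95% exact binomial limit). The colonic Hoxc shares of MSC lie below this upper limit, so these background cells are too few to tell the shares from background. The shares were not read as expression in a share of cells. In immune cells of small intestine the Hoxc share was 3.37% of 89 cells (median 13494 UMIs) in replicate 1, and 5 of 20 cells (median 4009 UMIs) had a Hoxc UMI in replicate 2, so Hoxc UMIs were found outside the MSC there. Posterior Hoxd genes had no such background level, because endothelial cells expressed Hoxd9 themselves. In immune cells it was 0 of 89 and 0 of 20 cells in small intestine and 0 of 13 and 1 of 14 in colon.

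**Figure D3:**
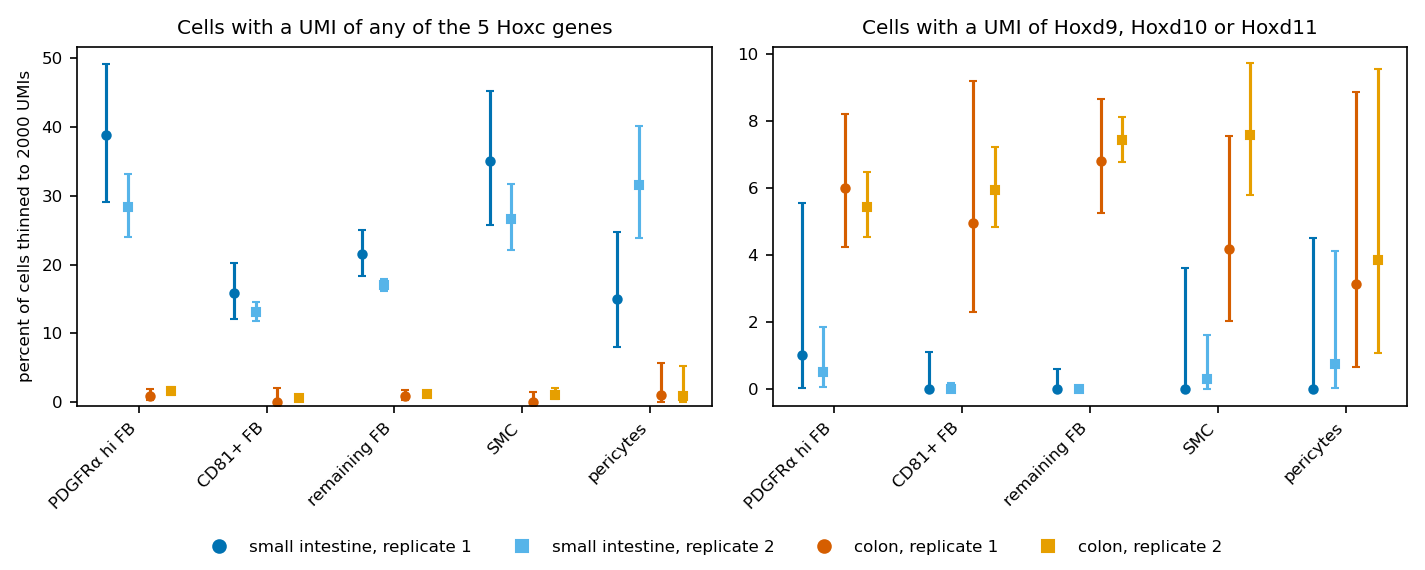
Percent of cells, thinned to 2000 UMIs each, with at least 1 UMI of any of the 5 Hoxc genes (left) or of Hoxd9, Hoxd10 or Hoxd11 (right), by class and library, with 95% exact binomial intervals that cover counting error only. Small intestinal libraries stand above colonic ones in every class on the left, and below them in the 4 FB and SMC classes on the right, where the pericyte intervals overlap.

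Within small intestine a Hoxc UMI was found in a larger share of PDGFRα hi FB and SMC than of CD81+ FB in either library. Remaining FB lay between them in both libraries. The shares were not tested between classes and are a description. The share of thinned cells with a Hoxc UMI was 38.8% and 28.4% in PDGFRα hi FB, 35.0% and 26.7% in SMC and 15.8% and 13.1% in CD81+ FB. The few immune cells of replicate 2 had a 95% exact binomial interval of 8.66% to 49.1%, which covers the shares of these classes in that library. Classes were compared with the remaining FB of the same intestine in 1 edgeR fit with library as a block, over 12587 genes. Genes were called at an adjusted p under 0.05. In small intestinal SMC this fit called no Hoxc member. The edgeR adjusted p was 0.36 for Hoxc4, 0.065 for Hoxc5, 0.12 for Hoxc6 and 0.13 for Hoxc8 and Hoxc9. Of the Hoxc members, Hoxc4 alone was called in small intestinal CD81+ FB, and Hoxc6 and Hoxc8 in small intestinal PDGFRα hi FB.

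In small intestinal PDGFRα hi FB 5 of 10 members were higher than in remaining FB and 0 lower, where 24.1% of all genes were called. Hoxc6 had 49.7 and 55.4 CPM against 30.8 and 24.3 CPM (0.74 ± 0.19, edgeR adjusted p = 0.0052), and Hoxc8 had 92.2 and 70.9 against 44.0 and 37.8 CPM (0.72 ± 0.14, adjusted p = 0.00067). Hoxd8 had 38.3 and 36.5 against 10.4 and 11.3 CPM (1.52 ± 0.24, adjusted p = 5e-05). Hoxd4 had 4.14 and 11.5 against 1.20 and 1.57 CPM (2.38 ± 0.49, adjusted p = 0.001). For each of these 4 genes both libraries of the class stood above both of the remaining FB. Hoxd9 was called on 4 UMIs against 1, a ratio of 55.1 (95% counting interval 5.45 to 2713). The count was 4 without small intestine replicate 1 and 1 without small intestine replicate 2, where Hoxd8 alone was called.

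In colonic PDGFRα hi FB 3 of 10 members were called, near the 28.1% of all genes. Hoxd4 (1.22 ± 0.37, edgeR adjusted p = 0.017) and Hoxd8 (0.62 ± 0.21, adjusted p = 0.032) were higher than in remaining FB. Hoxd11 was lower (-0.71 ± 0.16, adjusted p = 0.0022), with 12.8 and 17.8 CPM against 24.4 and 23.2 CPM. The count was 0 without colon replicate 1 and 1 without colon replicate 2, where Hoxd11 alone was called.

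In small intestinal CD81+ FB 3 of 10 members were lower and 0 higher, where 11.7% of all genes were called. Hoxd8 had 3.26 and 1.73 CPM against 10.4 and 11.3 CPM in remaining FB (-2.18 ± 0.31, edgeR adjusted p = 3.4e-05), with no overlap. Hoxd4 had 0 UMIs in 2866 cells of the class, at least 5.63-fold lower than in remaining FB, with an adjusted p of 0.0032 in the same fit. Hoxc4 had 13.7 and 21.3 against 32.4 and 28.6 CPM (-0.54 ± 0.17, edgeR adjusted p = 0.04), and this call ended with doublets kept (adjusted p = 0.074). The count was 0 without small intestine replicate 2 (Hoxd8 at -1.47 ± 0.46, adjusted p = 0.11) and 2 without small intestine replicate 1.

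In colonic CD81+ FB 1 of 10 members was called, below the 19.6% of all genes. This was Hoxd11 (-0.55 ± 0.19, edgeR adjusted p = 0.047), and the call ended without colon replicate 1 (adjusted p = 0.082), colon replicate 2 (adjusted p = 0.61) or small intestine replicate 2 (adjusted p = 0.053). Hoxd8 had 7.04 and 8.09 CPM in this class and 5.10 and 6.76 CPM in remaining FB (0.39 ± 0.26, adjusted p = 0.35).

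In small intestinal SMC 2 of 10 members were higher than in remaining FB, near the 16.2% of all genes. These were Hoxd4 (1.82 ± 0.58, edgeR adjusted p = 0.036) and Hoxd8 (0.94 ± 0.28, adjusted p = 0.023), which had 15.7 and 30.1 CPM. The Hoxd8 call ended without small intestine replicate 2 (0.34 ± 0.48, adjusted p = 0.78), and the Hoxd4 call ended without either small intestinal library or colon replicate 2 (adjusted p = 0.13, 0.56 and 0.069 without small intestine replicates 1 and 2 and colon replicate 2). In colonic SMC 1 of 10 members was called, below the 39.6% of all genes. Hoxd9 had 3.93 and 6.28 CPM against 12.6 and 10.7 CPM (-1.22 ± 0.33, edgeR adjusted p = 0.005), and the call ended without colon replicate 1 (adjusted p = 0.14).

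**Figure D4:**
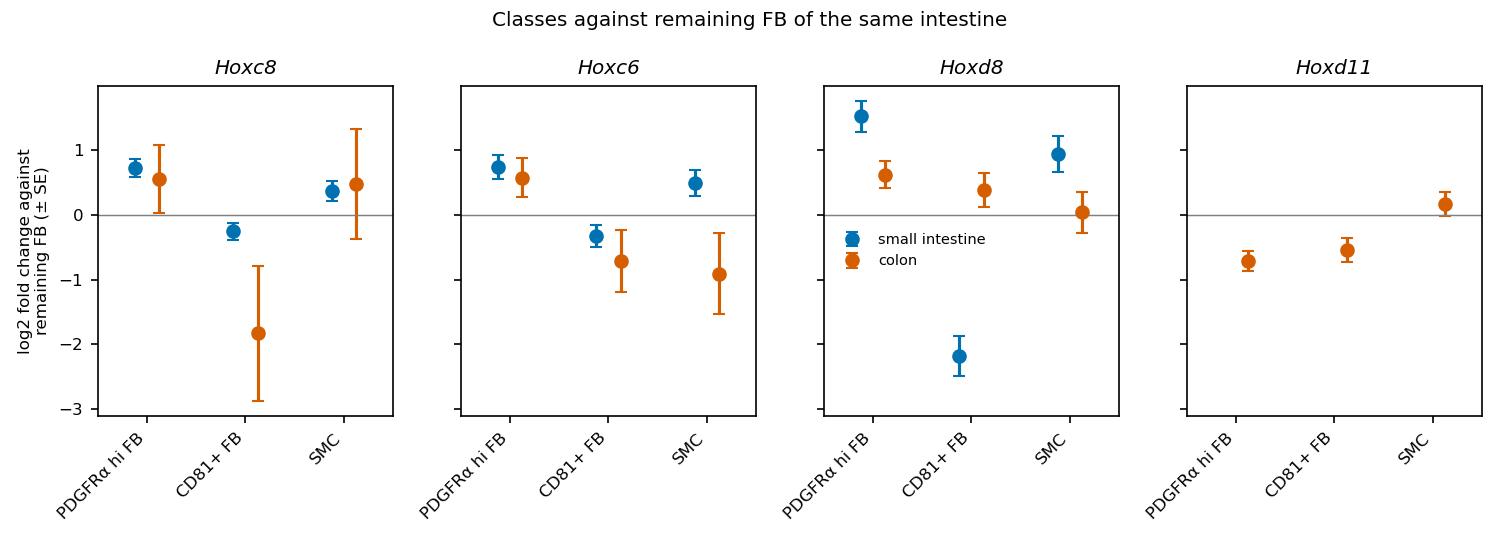
Fitted log2 fold change (± SE) of Hoxc8, Hoxc6, Hoxd8 and Hoxd11 in PDGFRα hi FB, CD81+ FB and SMC against remaining FB, for small intestine in blue and colon in orange, from 2 libraries each. Hoxd8 in CD81+ FB lies at -2.18 in small intestine and 0.39 in colon, and Hoxd11, with 0 UMIs in small intestine, has colonic points only.

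Whether a class differed by another amount in colon than in small intestine was tested as the class by intestine term of this fit. For CD81+ FB 1 of 10 members was called, beside 3.82% of all genes. Hoxd8 was lower than in remaining FB in small intestine and not in colon, a difference of 2.57 ± 0.41 in log2 (edgeR adjusted p = 0.0008), which was 2.78 ± 0.69 without colon replicate 2 (adjusted p = 0.054) and 1.88 ± 0.52 without small intestine replicate 2 (adjusted p = 0.13). Between the intestines themselves, Hoxd8 in CD81+ FB was 3.67-fold higher in colon over pooled UMIs, and in PDGFRα hi FB 3.69-fold, in SMC 3.68-fold and in remaining FB 1.75-fold higher in small intestine. Within replicates 1 and 2 the log2 ratio of colon to small intestine was 1.11 and 2.23 in CD81+ FB, -2.23 and -1.68 in PDGFRα hi FB, -2.0 and -1.76 in SMC and -1.03 and -0.74 in remaining FB. Without the block the edgeR adjusted p of Hoxd8 was 0.36 in CD81+ FB, 0.10 in PDGFRα hi FB, 0.17 in SMC and 0.42 in remaining FB. With it, Hoxd8 was called in PDGFRα hi FB (-1.78 ± 0.26, adjusted p = 1.4e-10) and SMC (-1.74 ± 0.39, adjusted p = 6.5e-05), and its adjusted p was 0.055 in CD81+ FB. These p-values carry the limit given above for the block.

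For PDGFRα hi FB 1 of 10 members was called by intestine, beside 5.32% of all genes. This was Hoxd9, on the 4 and 1 UMIs given above for small intestine, and the call ended without colon replicate 2, small intestine replicate 1 or small intestine replicate 2 (edgeR adjusted p = 0.072, 0.10 and 0.53). For SMC 0 of 10 members were called by the edgeR test, where 11.8% of all genes were, and 4 had an unadjusted p under 0.05. No other tool was run for these terms.

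The antisense gene Hoxd3os1, named after its values had been seen, lies on the reverse strand of chromosome 2 at 74703248 to 74716130, across the whole of Hoxd8 and the first part of Hoxd4, and faces exons of Hoxd4. It had 28.0 and 20.3 CPM in small intestinal PDGFRα hi FB, 0.652 and 0.371 CPM in CD81+ FB, and 6.19 and 2.87 CPM and then 1.76 and 1.75 CPM in the same classes of colon. Against remaining FB of small intestine it was higher in PDGFRα hi FB (2.71 ± 0.37, edgeR adjusted p = 1e-05) and SMC (1.91 ± 0.45, adjusted p = 0.0048) and lower in CD81+ FB (-2.41 ± 0.63, adjusted p = 0.013), the directions that Hoxd4 and Hoxd8 took. Hoxd13 was lower in colonic PDGFRα hi FB than in remaining FB (-2.60 ± 0.41, adjusted p = 7.6e-05), with 0.453 and 1.33 CPM against 3.20 and 7.02 CPM. Of the 14 cluster neighbours 5 entered this fit, and 2 were higher and 0 lower in small intestinal PDGFRα hi FB, where 24.1% of all genes were called. Between the intestines 3 to 6 entered the fits of the classes and of all MSC, and 0 were called by edgeR without the block, though 1 to 4 per fit had an unadjusted p under 0.05. With the block 3 were called in all MSC (beside 836 of 14120 genes) and 3 in remaining FB (691 of 13256), all higher in colon. In CD81+ FB 1 was called, higher in colon (beside 415 of 11384 genes). The block called 2 in PDGFRα hi FB, 1 in each direction (789 of 11367), and 1 in SMC, lower in colon (944 of 10164). The lower ones were Hoxd3os1 in PDGFRα hi FB (-2.36 ± 0.35, edgeR adjusted p = 5.8e-10) and in SMC (-3.22 ± 0.67, adjusted p = 1.8e-05), with the same limit on p-values of the block.

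Hox proteins bind DNA together with TALE cofactors of the Pbx, Meis and Pknox families, and 9 such genes were listed. Between the intestines 0 of the 8 or 9 tested were called by edgeR in any of the 4 classes or in all MSC, with 0 to 2 at an unadjusted p under 0.05 per fit. The block called 2 in SMC (1 in each direction), beside 944 of 10164 genes, and 0 elsewhere. Against remaining FB, 4 of 9 cofactors were higher in CD81+ FB in either intestine (and 1 lower in small intestine), where 11.7% and 19.6% of all genes were called in small intestine and colon, and 4 of 9 were lower in PDGFRα hi FB of either intestine, where 24.1% and 28.1% were. Meis2, named after its values had been seen, was higher in CD81+ FB of small intestine (1.40 ± 0.13 in log2, edgeR adjusted p = 3e-07) and lower in PDGFRα hi FB of small intestine (-0.75 ± 0.16, adjusted p = 0.0019).

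Cells other than MSC that the sort had left were read too, since the members differ among them. Endothelial cells, 347 in small intestine replicate 1 and 236 in colon replicate 1 but 1 and 24 in the other libraries, had Hoxd8 at 19.2 and 30.8 CPM and Hoxd9 at 17.9 and 32.3 CPM in the replicate 1 libraries. Of the 32 Hoxd9 UMIs in kept cells of small intestine replicate 1, 29 lay in endothelial cells and 3 in MSC, and all 5 Hoxd10 UMIs lay in endothelial cells. Hoxd11 had 0 UMIs in endothelial cells of these libraries and 1 UMI in those of colon replicate 2. Without the gate, over all cells, the log2 fold change of Hoxd9 was 3.26 ± 1.30 in place of 5.73, an alternative chosen after the data were seen.

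Interstitial cells of Cajal (ICC), the pacemaker cells of the gut wall, were found in colon alone, 14 and 45 of them. They had Hoxd11 at 169 and 109 CPM, Hoxd10 at 89.9 and 54.4 CPM, Hoxd9 at 50.6 and 69.2 CPM and Hoxd8 at 79.1 CPM in replicate 2 and 78.6 CPM in replicate 1. Of thinned ICC 42.9% and 34.1% had a UMI of a posterior Hoxd gene, against 5.92% and 6.78% of colonic MSC. Endothelial markers summed to 6.10, 1.52, 3.33 and 2.71 CPM in the gated MSC, with all 6 detected in each library and overlapping between the intestines. ICC markers summed to 58.0, 38.5, 89.4 and 50.5 CPM there, with 3 of 4 detected in small intestine and 4 in colon, and their part in the colonic Hoxd levels of MSC was not tested.

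**Figure D5:**
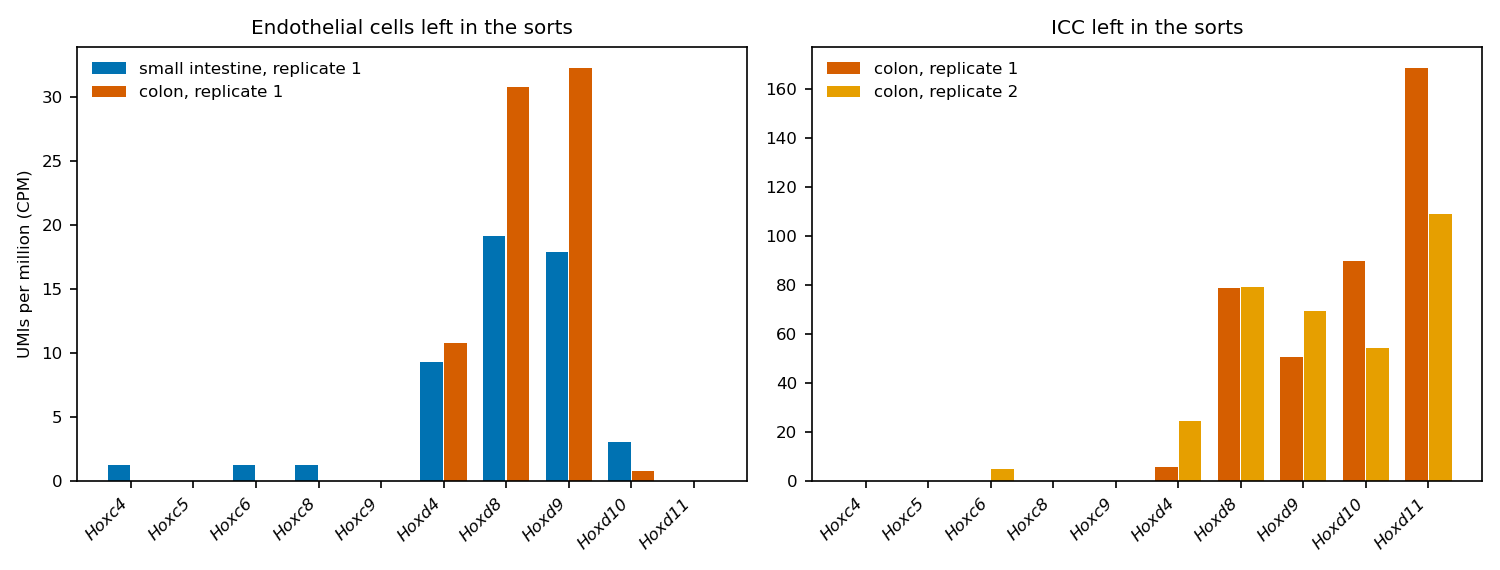
Level of the 10 genes in CPM (bars from 0, 1 bar per library) in endothelial cells of the 2 replicate 1 libraries (left) and in ICC of the 2 colonic libraries (right). Hoxd8 and Hoxd9 are seen in endothelial cells of both intestines, where Hoxd11 has 0 UMIs, and Hoxd11 reaches 169 and 109 CPM in ICC.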

How the data were processed

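The deposited files hold raw counts of UMIs for every gene in every barcode, which the authors made with Cell Ranger (3.0.2 and 3.1.0 per the file headers) on mm10, with no normalization. Members and gene lists were chosen with earlier results of these data known. Barcodes were kept with at least 500 genes, 1000 UMIs and at most 10% mitochondrial UMIs, and those with a scrublet score above 0.2 (scanpy 1.11.5) were removed as doublets, since the automatic threshold marked 1 of 15263 in one library. The 26, 913, 45 and 535 removed are in the order of the report.

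Each marker was scaled to a z-score with equal weight per library, and a cell took the class with the highest mean z of at least 0.5 and at least 3 markers detected. Cells with at least 3 markers of endothelial, immune, plasma, epithelial, glial or mesothelial cells were set aside, as were ICC (3 markers including Kit). Cells within 0.25 of a limit were counted as near it.

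UMIs were summed per library and class and tested across all genes with edgeR 4.0.16 (R 4.3.3; filterByExpr, TMM, robust quasi-likelihood), without a block between intestines and with library as a block between classes. DESeq2 1.42.0 served as an alternative. The thresholds between intestines are those the study used for its own comparisons. CPM (UMIs per 1000000 UMIs) is not corrected for length, so levels are compared between cells and not between genes. Depth sets the precision, and 1 UMI in small intestine replicate 1 weighs more than in the others. Intervals are exact, at 95%. The steps were tested on simulated counts. Named genes were all 10 members, the neighbours and cofactors called between intestines or with the highest level of their list, and the 5 genes most like each set. For 2 genes that this rule names, values are not reported here. GENCODE vM21 matched 28339 gene IDs, all members included. The alternatives were other filters, gates, normalizations, doublets kept, the replicate block and each library left out.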

Additional observations from a re-analysis of the deposited data

Results flagged for a closer look

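The fold of Hoxd8 between CD81+ FB and remaining FB differed between the intestines by 2.57 in log2, by the test of the term itself in edgeR. That of Hoxd9 between PDGFRα hi FB and remaining FB differed by -4.71, on 4 and 1 small intestinal UMIs.

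Members were found above the limit of 3 counts in cells outside the MSC. In endothelial cells of small intestine replicate 1 and colon replicate 1 Hoxd4 had 9.28 and 10.8 CPM, Hoxd8 19.2 and 30.8 CPM and Hoxd9 17.9 and 32.3 CPM. In ICC of colon replicates 1 and 2 Hoxd8 had 78.6 and 79.1 CPM, Hoxd9 50.6 and 69.2 CPM, Hoxd10 89.9 and 54.4 CPM and Hoxd11 169 and 109 CPM. Small intestine had 0 ICC by the same gate, so the intestines could not be compared there.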

How the results depend on the processing

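Of 687 refitted log2 fold changes of single members, 528 kept their direction and side of the threshold, 81 passed it newly, 65 no longer passed it and 13 turned, all 13 in Hoxc9 or Hoxd4. Replicate numbers do not state shared animals. Deviations of same-numbered libraries correlated at 0.80 in all MSC, 0.68 in PDGFRα hi FB, 0.66 in CD81+ FB, 0.75 in remaining FB and 0.66 in SMC, and with 2 pairs this is a hint from the data. With the replicate block 7 members were called in all MSC, 8 in PDGFRα hi FB, 7 in CD81+ FB, 7 in remaining FB and 6 in SMC, among 836, 789, 415, 691 and 944 genes, against 0, 4, 5, 4 and 5 members without it. In all MSC 7 were also called by DESeq2, with library size alone and with no filter, and 5 with a stricter gate. DESeq2 called 7 and no filter 8 in PDGFRα hi FB, and each called 7 in remaining FB. With doublets kept 3 were called in CD81+ FB. Leaving out 1 library gave 0 to 6 in all MSC, 0 to 5 in PDGFRα hi FB, 0 to 7 in CD81+ FB and in remaining FB and 5 to 6 in SMC. Against remaining FB, it gave 1 to 5 (small intestine) and 0 to 3 (colon) in PDGFRα hi FB, 0 to 3 and 0 to 1 in CD81+ FB and 0 to 2 and 0 to 1 in SMC, and by intestine 0 to 1 in PDGFRα hi FB and CD81+ FB and 0 in SMC. The single call in colonic CD81+ FB was lost (0) with at least 1000 genes and 2000 UMIs, DESeq2 size factors or doublets kept, that of PDGFRα hi FB by intestine (0) with at least 1000 genes and 2000 UMIs, CD81+ FB by intestine rose to 2 with no filter, and small intestinal SMC fell to 1 with a stricter gate.

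Leaving out 1 library turned Hoxc9, whose log2 fold change ranged from -0.41 to 0.070 in all MSC, from -0.45 to 0.52 in PDGFRα hi FB and from -0.12 to 0.24 in remaining FB, and Hoxd4, which ranged from -0.58 to 0.32 in all MSC and from -1.32 to 0.34 in remaining FB. Requiring 1000 genes and 2000 UMIs turned Hoxc9 to 0.040 in PDGFRα hi FB and Hoxd4 to 0.13 in all MSC and 0.17 in remaining FB. In all MSC Hoxd4 also turned to 0.010 with library size alone and to 0.034 with a stricter gate. The log2 ratio of Hoxc to posterior Hoxd UMIs moved to 7.80 in small intestine replicate 1 (thinned cells), to 8.63 (doublets kept) and 12.50 (remaining FB alone) in small intestine replicate 2, and to -3.06 (remaining FB alone) and -2.58 (thinned cells) in colon replicate 2. The causes were not tested. Depth limits small intestinal Hoxd10 and Hoxd11, with 0 UMIs in all MSC and thus a floor alone, and small intestinal Hoxd9 and colonic Hoxc5, with 9 and 5 UMIs.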

Other observations

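Genes outside the Hox clusters were ranked by the Pearson correlation of log2(CPM + 1) with that of the summed sets over 20 sums (5 classes in 4 libraries), which share libraries and depth, and the values are a description. Eligible genes had at least 200 UMIs in both small intestinal libraries for the Hoxc set, and in both colonic libraries for the posterior Hoxd set. Each list was thus drawn from genes detected in the intestine where its set is high. Among the 5 most like the Hoxc set, of 6965 eligible genes, were Cyp1b1 (r = 0.938), a cytochrome P450 enzyme, and Tap1 (0.928), Gbp7 (0.926) and H2-Q6 (0.926), which are genes of antigen presentation and the interferon response. Cyp1b1 had 46.8, 26.1, 0.0512 and 0.105 CPM in all MSC. The 5 most like Hoxd9, Hoxd10 and Hoxd11 together, of 8753 eligible genes, were Isl1 (r = 0.942), Lgals3 (0.893), Cd109 (0.887), Pvt1 (0.843) and Adam23 (0.831). Isl1, a LIM homeodomain transcription factor, had 0, 0.225, 37.6 and 47.9 CPM.

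Remaining FB were also read with and without a UMI of Fgfr2, and no test was run. In small intestine the summed Hoxc level was 141 CPM with and 106 CPM without such a UMI in replicate 1, and 104 and 99.7 CPM in replicate 2. In colon the posterior Hoxd level was 48.6 and 37.9 CPM in replicate 1 and 52.6 and 38.5 CPM in replicate 2. Cells with an Fgfr2 UMI were deeper (median 8519 against 4650 UMIs in small intestine replicate 1), and the part of depth was not tested.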
